A study of Mus musculus with 32 samples.

Results

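Imprinted genes are transcribed mainly from 1 parental copy, and 9 of them (Snrpn, Ndn, Peg3, H19, Meg3, Dlk1, Cdkn1c, Grb10 and Plagl1) were followed through 4 tissues of male mice. They were chosen by name, and all 9 of the 51510 genes to which transcripts could be assigned were found. RNA had been sequenced from 4 organs of C57BL/6J mice, namely liver, heart, skeletal muscle (muscle) and brown adipose tissue (BAT). The mice were either wild type (WT) or carried a knockout of SMIM30 (labelled Mut). There were 4 libraries in each of the 8 tissue and genotype groups, 32 libraries in all, and the series design describes 4 individual males per tissue. The labels used here name no age, no method of making the knockout, no founder line and no treatment. Levels are TPM (transcripts per 1000000), an abundance per transcript length scaled to the same total in each library.

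In mammals an imprint is a DNA methylation mark set in the egg or the sperm at a control region and kept through cell division, so that a cluster of genes nearby is read from the maternal or the paternal copy. Many imprinted genes steer growth of the fetus and placenta. As a class they are known for high levels in fetal tissue that drop after birth, with persistence in selected adult tissues. TPM adds both parental copies together, so the data hold no measure of allelic expression.

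The members fall into clusters on 4 chromosomes. On mouse build GRCm38 with the GENCODE M21 annotation, Peg3 (chr7:6703892-6730431, minus strand), Snrpn (chr7:59982495-60140219, minus), Ndn (chr7:62346569-62350262, plus), H19 (chr7:142575529-142578143, minus) and Cdkn1c (chr7:143458339-143461050, minus) lie on chromosome 7. Dlk1 (chr12:109452823-109463336, plus) and Meg3 (chr12:109541001-109571726, plus) are neighbours on chromosome 12. Plagl1 lies at chr10:13060504-13131694 (plus) and Grb10 at chr11:11930508-12038683 (minus). H19 and Meg3 are annotated as long noncoding RNAs, and the other 7 encode proteins.

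Snrpn shares its locus with other gene entries, which were read apart. The Snrpn entry (ENSMUSG00000102252.5) has 2 transcripts, and Snrpn-201, whose first base is chr7:60005111, held between 99.58% and 100% of its TPM in every group. The Snurf entry (ENSMUSG00000102627.1), which shares the start of that transcription unit, was listed at 0 in 31 libraries and at 4.47 TPM in Mut heart library 2. Snhg14 (ENSMUSG00000100826.6), the long host RNA of small nucleolar RNAs that continues on the same strand, is a separate entry and is described below with the neighbours. Snrpn also has a close paralog, Snrpb, and reads common to both are shared out by Salmon, so part of the Snrpn level is uncertain on that account.

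RefSeq promoter windows (GRCm38.p6, 250 bases before to 50 after a start) were found for 7 of the 9 members, 12 windows in all. The 5 shown, a choice from these 12, belong to Snrpn, Grb10, Meg3 and Plagl1, and each is written 5′ to 3′ along the gene. Capitals mark TGCCGC, the letters that the imprint keeper ZFP57 recognises when methylated, and GCCAT, the core of the site for YY1, a factor with many sites in imprinted control regions. Both strands were searched, so that a match can appear as GCGGCA or ATGGC, and no matches overlapped in these windows. All 5 windows shown hold a match. The windows without any match (Peg3, Dlk1, another of Meg3 and another of Snrpn) are not shown. The Snrpn windows not shown hold no TGCCGC.
Snrpn, chr7:60005150-60005449, minus strand: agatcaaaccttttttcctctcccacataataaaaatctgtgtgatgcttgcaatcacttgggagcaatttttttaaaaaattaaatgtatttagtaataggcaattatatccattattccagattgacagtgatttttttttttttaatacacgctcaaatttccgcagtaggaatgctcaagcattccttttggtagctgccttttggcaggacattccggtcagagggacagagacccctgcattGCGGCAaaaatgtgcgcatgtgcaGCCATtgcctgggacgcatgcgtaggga
Grb10 upstream start, chr11:12037371-12037670, minus strand: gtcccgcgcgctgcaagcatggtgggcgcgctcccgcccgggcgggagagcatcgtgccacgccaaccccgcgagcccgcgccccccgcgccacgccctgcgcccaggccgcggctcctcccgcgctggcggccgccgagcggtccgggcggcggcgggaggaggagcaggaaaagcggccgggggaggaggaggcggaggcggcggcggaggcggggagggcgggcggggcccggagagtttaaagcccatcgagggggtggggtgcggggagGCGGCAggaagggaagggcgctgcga
Grb10 downstream start, chr11:12027922-12028221, minus strand: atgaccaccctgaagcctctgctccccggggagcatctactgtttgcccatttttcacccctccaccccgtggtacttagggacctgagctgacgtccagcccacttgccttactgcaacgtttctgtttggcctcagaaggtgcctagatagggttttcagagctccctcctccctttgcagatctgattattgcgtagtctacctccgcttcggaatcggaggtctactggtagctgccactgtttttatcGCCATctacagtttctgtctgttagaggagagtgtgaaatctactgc
Meg3, chr12:109540746-109541045, plus strand: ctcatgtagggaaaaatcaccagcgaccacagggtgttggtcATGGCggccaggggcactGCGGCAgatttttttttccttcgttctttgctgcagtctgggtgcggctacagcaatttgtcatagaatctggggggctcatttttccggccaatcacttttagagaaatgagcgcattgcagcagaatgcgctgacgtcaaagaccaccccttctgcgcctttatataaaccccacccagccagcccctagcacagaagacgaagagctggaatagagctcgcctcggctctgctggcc
Plagl1, chr10:13090582-13090881, plus strand: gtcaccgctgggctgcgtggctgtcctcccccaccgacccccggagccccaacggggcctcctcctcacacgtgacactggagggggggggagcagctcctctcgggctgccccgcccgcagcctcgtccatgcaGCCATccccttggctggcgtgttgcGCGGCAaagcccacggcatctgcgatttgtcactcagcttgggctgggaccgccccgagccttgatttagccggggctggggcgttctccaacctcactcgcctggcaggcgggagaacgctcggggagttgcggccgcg

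The windows differed widely in CpG content. The upstream Grb10 window held 45 CpG pairs at 80.0% GC and the Plagl1 window 26 CpG pairs at 70.7% GC. The Meg3 window shown held 13 CpG pairs, the downstream Grb10 window 9 and the Snrpn window shown 7. The median over the 32851 promoters of the table was 7 CpG pairs at 52.7% GC. TGCCGC occurred in 4 of the 12 member windows (those shown for Snrpn, Meg3 and Plagl1 and the upstream Grb10 window) and in 11.6% of all promoters. GCCAT occurred in 7 of the 12 and in 40.5% of all promoters. These matches describe letters in 1 strain's reference and are not evidence of binding.

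The libraries matched their tissue labels. The summed level of 8 hepatocyte markers was 75612 to 100047 TPM in liver and 813 to 1288 TPM elsewhere, and the marker lists of cardiomyocytes, muscle fibres and brown adipocytes were likewise highest in the labelled tissue. Per library, 11480 to 12431 genes were at 1 TPM or above. Because read totals cannot be recovered from TPM, the depth is unknown, and precision was read from the spread between libraries. Mitochondrially encoded genes took 10.1% to 14.7% of the TPM in liver and 41.0% to 54.7% in heart, with the highest share in Mut heart library 2. The knockout gene, listed in the annotation as 2610001J05Rik, kept at least 17.3 TPM in every Mut library. Its mean was 28.7 TPM in WT and 29.5 in Mut BAT, 34.6 and 23.6 in heart, 23.2 and 21.1 in liver, and 34.3 and 25.9 in muscle, so RNA level alone does not separate the genotypes in every tissue.

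H19 in muscle was the highest level of any member in any tissue. H19 is the maternally expressed long noncoding RNA next to Igf2 and is a classic marker of fetal muscle and liver. In WT muscle its level was 145, 238, 246 and 183 TPM in the 4 libraries. In WT heart the libraries held 14.5, 23.9, 17.0 and 47.1 TPM, BAT held 3.55 to 5.71 TPM and liver 2.90 to 3.64 TPM. No muscle library overlapped any other tissue, and the mean in muscle was 63.6-fold that in liver. BAT and liver did not differ beyond their spread (log2 difference 0.34, SE 0.26, adjusted p = 0.270 with limma). Markers of muscle stem cells and developing fibres summed to 15.3 to 19.4 TPM in WT muscle and to at most 0.434 TPM in WT heart, BAT and liver.

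Meg3, the maternally expressed noncoding RNA of the Dlk1 cluster, had a flatter profile. Its WT mean was 12.2 ± 3.34 TPM in BAT, 9.67 ± 1.62 in muscle, 8.07 ± 2.05 in heart and 1.52 ± 0.305 in liver (SD, n = 4 each). The 3 non-hepatic tissues overlapped, and muscle differed beyond its spread from neither BAT (adjusted p = 0.151 with limma) nor heart (0.231). BAT was higher than heart (log2 difference 0.54, SE 0.17, adjusted p = 0.0136 with limma), a call kept in 23 of 25 alternative settings. Dlk1, the paternally expressed Notch-like protein that holds back adipocyte differentiation, reached 1 TPM in BAT alone. It was read at 1.18 to 2.17 TPM in WT BAT, 0.314 to 0.681 in muscle, 0.0830 to 0.372 in liver and 0.0433 to 0.0949 in heart. In Mut liver 3 of 4 libraries were listed at 0 for Dlk1. The Dlk1 values of heart and liver are thus at the low end of what the table records, and those tissues did not differ in WT (adjusted p = 0.294 with limma).

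Cdkn1c encodes p57, an inhibitor of cyclin-dependent kinases that is expressed from the maternal copy and stops cells from cycling. It was highest in BAT, where the WT libraries held 32.8, 35.0, 20.2 and 22.7 TPM. Muscle followed at 17.1 to 20.2 TPM, heart at 13.6 to 18.2 TPM and liver at 2.71 to 5.23 TPM. BAT and muscle overlapped in WT. Their log2 difference was 0.50 (SE 0.17, adjusted p = 0.0164 with limma), a call kept in 22 of 25 alternative settings. All 4 liver libraries were below every library of the other tissues, whereas heart and muscle overlapped and did not differ in WT (adjusted p = 0.179 with limma). Grb10, an adaptor that binds the insulin and IGF1 receptors and dampens their signal, had its highest level in heart. Its WT libraries held 11.4 to 13.0 TPM in heart, 5.88 to 8.29 in muscle, 3.10 to 5.03 in BAT and 0.807 to 0.925 in liver. These ranges did not overlap between any pair of tissues.

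Snrpn encodes SmN, a protein of the spliceosome's small nuclear ribonucleoprotein core, and is read from the paternal copy. The WT level was 29.4 to 37.9 TPM in heart, 23.9 to 27.4 in muscle, 10.0 to 13.3 in BAT and 4.91 to 7.40 in liver, with no overlap between tissues. Ndn encodes necdin, a paternally expressed protein of the MAGE family that is known to restrain proliferation of preadipocytes and neural precursors. Its BAT level stood far above the rest, at 13.1, 14.2, 15.4 and 16.2 TPM in WT. Heart held 2.00 to 3.00 TPM, muscle 1.76 to 2.11 and liver 0.580 to 0.722, so that BAT was 23.6-fold above liver. Heart and muscle were close (adjusted p = 0.0581 with limma).

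Peg3 and Plagl1 encode zinc finger proteins of the paternal copy that regulate other genes, many of them imprinted in the case of Plagl1. Peg3 was highest in BAT, at 4.78 to 7.83 TPM in WT, and lay between 1.14 and 3.06 TPM in the WT libraries of heart, liver and muscle. No pair of those 3 tissues passed the test (adjusted p from 0.108 to 0.621 with limma), although the narrow liver (1.18 to 1.34 TPM) and muscle (1.44 to 1.76 TPM) ranges did not overlap. Plagl1 was the lowest member next to Dlk1. It reached 1 TPM in heart alone, where the WT libraries held 1.86, 3.44, 1.09 and 4.66 TPM, and BAT, liver and muscle spanned 0.171 to 0.923 TPM. No pair of those 3 passed the test (adjusted p from 0.208 to 0.615 with limma), although the lowest BAT library (0.530 TPM) was just above the highest muscle library.

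**Figure D1:**
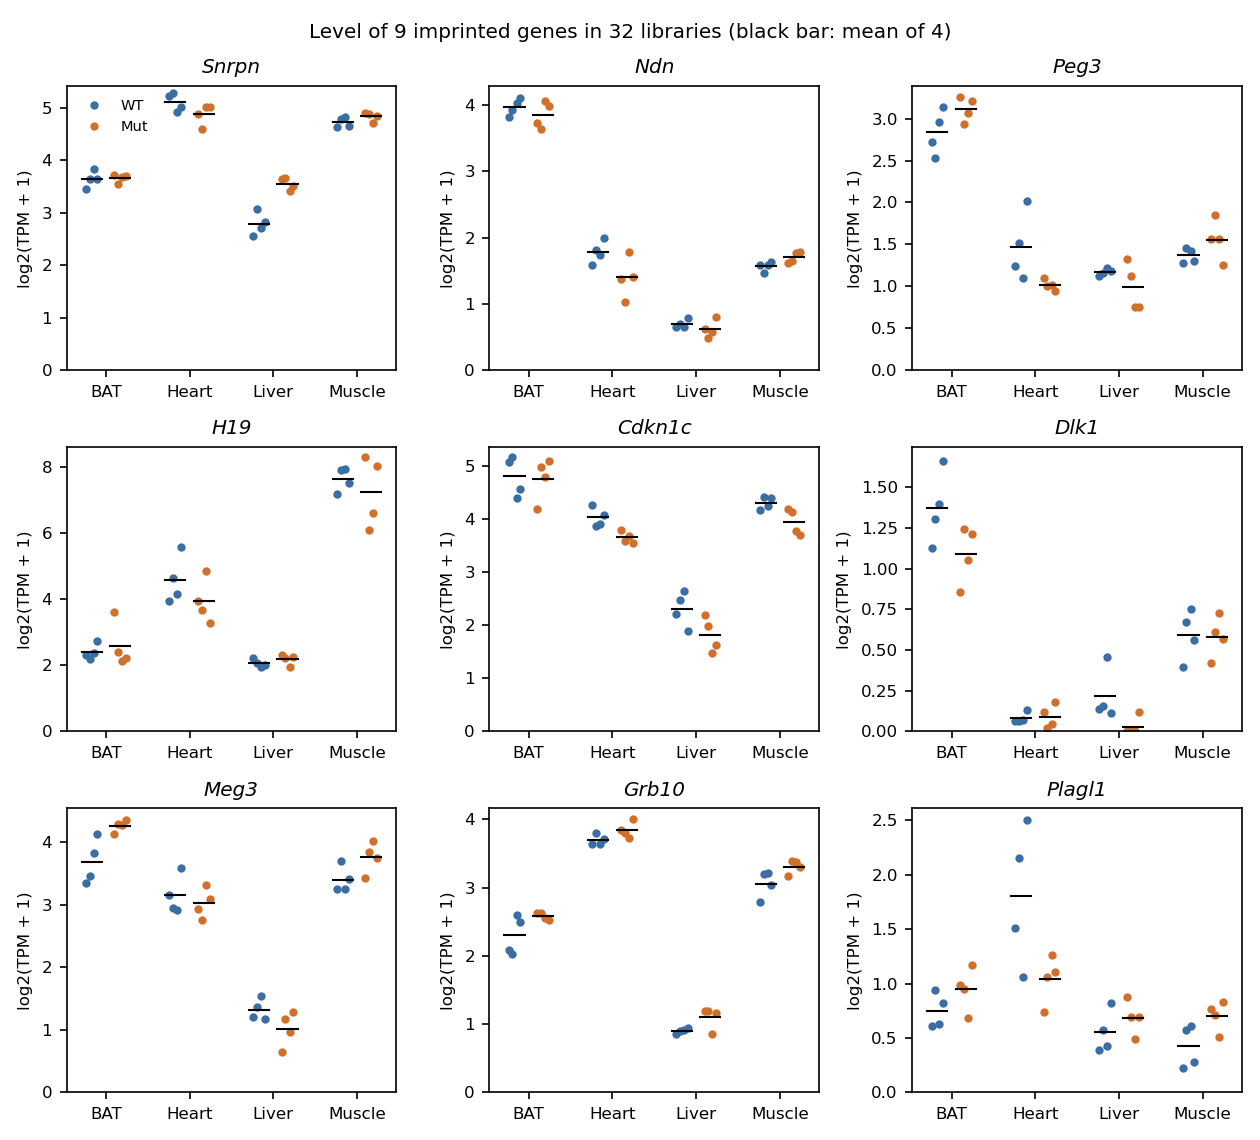
Level of the 9 imprinted genes in each of the 32 libraries, as log2(TPM + 1) on the y axis, by tissue on the x axis, with WT in blue and Mut in orange. Points are single libraries and black bars are means of 4 log2 values. Liver is lowest for most genes, muscle is highest for H19 (mean 203 TPM in WT), and Snrpn in liver is the sole panel position where Mut passed the test against WT.

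Each member differed across the 4 tissues, against a background of wide tissue differences. With limma F tests on log2(TPM + 1), 9 of 9 members were called in WT (adjusted p from 1.12e-14 to 6.78e-05), beside 95.7% of all genes tested, and 9 of 9 in Mut, beside 97.2%. Plagl1 reached the 1 TPM minimum through heart alone and Dlk1 through BAT alone, so both had to differ between tissues to be tested, and the counts support nothing for them. The tests took libraries of different tissues as independent, and the labels do not say whether same-numbered libraries of different tissues came from 1 mouse. In WT, 9 of 9 members differed between BAT and heart (61.7% of all genes) and 7 of 9 between BAT and liver (71.1%), BAT and muscle (71.4%), heart and liver (78%) and liver and muscle (78.7%). Between heart and muscle 5 of 9 differed (63.2%). In Mut the counts were 8 of 9 between BAT and heart (69.5%), 6 between BAT and liver (71.3%), 8 between BAT and muscle (72.9%), 7 between heart and liver (79.2%), 6 between heart and muscle (63.9%) and 8 between liver and muscle (78.8%). These shares are near the background, so the number of differences is not particular to the imprinted genes.

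The order of tissues was nearly the same in the separate WT and Mut libraries. The highest tissue agreed for 9 of 9 members: BAT for Ndn, Peg3, Cdkn1c, Dlk1 and Meg3, heart for Snrpn, Grb10 and Plagl1, and muscle for H19. Liver was the lowest tissue for 7 of 9 members in WT, the exceptions being Dlk1 (heart) and Plagl1 (muscle), and for 9 of 9 in Mut. The full order was the same for 5 of 9. Of the 54 member and tissue pair differences, 42 were called in WT, 43 in Mut and 39 in both, all 39 in the same direction. The pairs that were called in WT and not in Mut were BAT against liver and heart against muscle for Snrpn, and BAT against heart for Plagl1. In Mut, Snrpn stood at 11.7 TPM in BAT and 10.8 TPM in liver (log2 difference 0.11, SE 0.10, adjusted p = 0.315 with limma). In WT that difference was 0.85 (SE 0.11, adjusted p = 2.71e-06).

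A trace of each tissue's own markers was present in the libraries of every other tissue, and it sets how low levels can be read. Alb, the liver's albumin, was read in the other tissues at 0.953% to 1.34% of its WT liver level, Acta1 of muscle fibres at 1.54% to 1.73% of its muscle level, and Ucp1 of brown fat at 1.58% to 2.04% of its BAT level. Medians over the tissue markers were 0.966% to 2.29%. H19 in WT BAT was 2.14% and in WT liver 1.57% of its muscle level, where the 8 muscle fibre markers were read at 1.44% to 2.04% and 1.30% to 1.77%. The liver value lay within that range and the BAT value just above it. Whether H19 in BAT and liver is part of that trace was not tested. Dlk1 in heart was at 3.64% and Ndn in liver at 4.24% of the BAT level, and the remaining values of the members outside their highest tissue were at 7.27% or more.

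**Figure D2:**
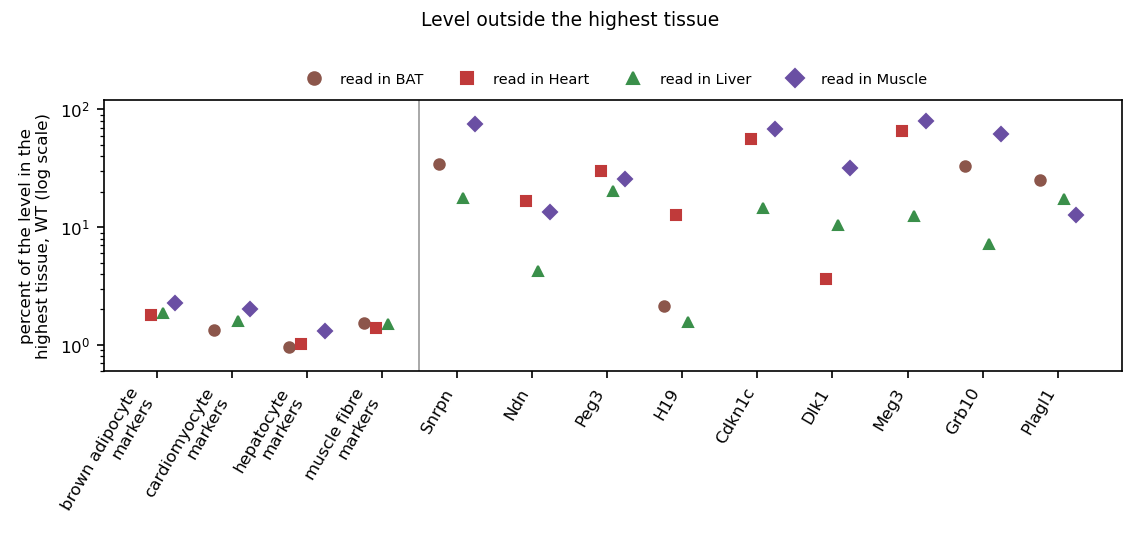
Level outside the highest tissue as a percent of the level in the highest tissue, in WT libraries, on a log scale, for the median tissue marker of each cell type (left of the line) and for each imprinted gene (right). Symbols show the tissue in which the value was read. H19 in BAT (2.14%) and liver (1.57%) lies near the height of the tissue markers, and the other values of the imprinted genes lie above the marker medians.

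Transcript shares were steadier between groups for some members than for others. Grb10-201, whose first base lies 19 bases from the upstream RefSeq start shown above, held 70.1% to 79.5% of Grb10 in every group. Grb10-203, which begins at the downstream start, held 17.7% to 25.1%. Peg3-201 held 84.3% to 92.0% of Peg3, H19-202 held 95.3% to 99.2% of H19, and Plagl1-202, which begins within 44 bases of the RefSeq start shown, held 54.5% to 73.0% of Plagl1. Meg3 was split over 3 main transcripts (30.6% to 45.2%, 24.1% to 37.0% and 13.2% to 28.1%). Of these 3 only the last, Meg3-205, begins near the RefSeq start of the window shown, 5 bases away. Cdkn1c was less even: 1 of its transcripts held 30.4% in WT liver and was listed at 0 in Mut liver, where the gene itself was low (4.02 and 2.59 TPM). Such shares are estimates, since reads common to several transcripts are divided among them, and no share was tested.

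Between genotypes, Snrpn rose in the liver of Mut mice and no other member was called in any tissue. The 4 WT liver libraries held 4.91, 7.40, 5.56 and 6.12 TPM of Snrpn and the 4 Mut libraries 11.5, 11.7, 9.63 and 10.3 TPM. Every Mut library was above every WT library. The mean went from 6.00 ± 1.06 to 10.8 ± 0.965 TPM (SD, n = 4 each), 79.9% higher, with a log2 fold change of 0.76 (SE 0.12, adjusted p = 0.0190 with limma). In liver 499 of 11994 genes were called (4.16%, 453 up and 46 down), and 1 of the 6 members tested there was called. The count of all genes rested on single libraries: it was 22 without WT liver library 3 and 32 without Mut liver library 1, and 35 when genes of all levels were tested. Scaling the libraries by median ratios gave 307 called genes, 148 of them up, and left Snrpn at 0.64 (adjusted p = 0.0299). The call was lost without WT liver library 3 (0.73, adjusted p = 0.0588), without Mut liver library 1 (0.73, adjusted p = 0.0577) and with no filter on low values, where the fold change was the same 0.76 and the adjustment ran over 26437 genes (adjusted p = 0.0595).

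Cell type markers moved in the same liver libraries, where 69.0% of all genes tested were higher in Mut. All 8 macrophage markers were higher in Mut liver (6 of 8 under median-ratio scaling), 1 of them called (Cd68), and their sum was 51.0 to 169 TPM in WT and 119 to 310 TPM in Mut. All 8 fibroblast markers tested were higher, 3 of them called (Col1a1, Col1a2 and Col3a1), and the sum of 10 was 25.8 to 34.1 TPM in WT and 40.7 to 62.5 TPM in Mut. The 8 hepatocyte markers were all lower in Mut liver (median -0.21 beside 0.10 over all genes), none called, or 1 under median-ratio scaling. Of the proliferation markers 3 were tested, 3 were higher and 1, Mcm2, was called. Mcm2 reached the 1 TPM minimum through Mut alone, so its call and its place in that count support nothing. The 12 markers of neurons and Schwann cells, the cells in which Snrpn is best known, summed to 3.93 to 5.58 TPM in WT and 4.57 to 5.87 TPM in Mut, with Snap25 listed at 0 in both. The 8 cardiomyocyte markers summed to 506 to 531 TPM in WT liver and 507 to 606 TPM in Mut. The part of any of these in the Snrpn difference was not tested, and in bulk tissue fewer cells of a type and less RNA per cell cannot be told apart.

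**Figure D3:**
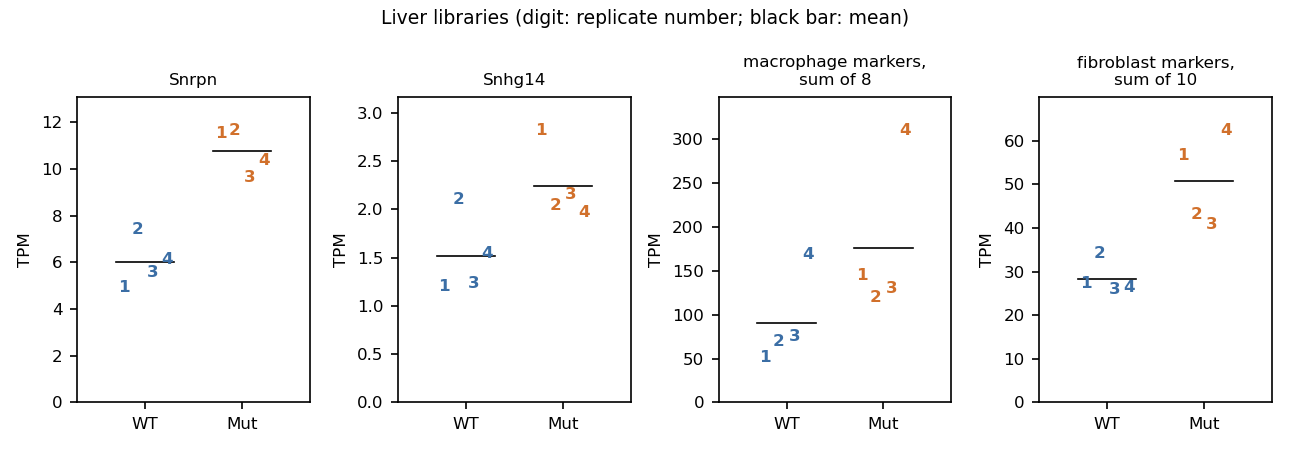
TPM in the 8 liver libraries for Snrpn, its downstream neighbour Snhg14, and the summed macrophage (8 genes) and fibroblast (10 genes) markers, with the replicate number as the plotting symbol and the mean as a black bar. Snrpn and the fibroblast sum separate the genotypes without overlap, and Snhg14 (1.20 to 2.10 TPM in WT, 1.96 to 2.82 in Mut) and the macrophage sum overlap.

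Of the other liver members tested, none passed. Cdkn1c was 4.02 ± 1.10 TPM in WT and 2.59 ± 0.810 in Mut (log2 fold change -0.48, SE 0.20, adjusted p = 0.163), and Meg3 was 1.52 and 1.05 TPM (-0.31, adjusted p = 0.254, both with limma). Peg3, H19 and Grb10 lay between -0.18 and 0.20. Grb10 reached the 1 TPM minimum there through Mut alone (0.873 TPM in WT and 1.16 in Mut). Its place among the higher members below supports nothing for that reason. Ndn, Dlk1 and Plagl1 were under the 1 TPM minimum in liver and are given as levels only. The median over the 6 tested members was -0.03, beside 0.10 over all genes, with 3 higher and 3 lower. Snrpn was also the sole member in liver whose groups did not overlap, as were those of 16.4% of all genes there.

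In BAT no member was called, in a tissue where 0 of 12150 genes were called (0%) and 2369 had an unadjusted p under 0.05. That 0 was not stable: 819 genes were called without WT BAT library 3, 648 with limma's array weights and 846 with 1 fit over all 32 libraries. Meg3 came nearest. Its libraries held 9.17, 10.0, 13.3 and 16.5 TPM in WT and 16.6, 18.5, 18.3 and 19.6 TPM in Mut, just without overlap, as was the case for 9.41% of all genes in BAT. The log2 fold change was 0.57 (SE 0.16, adjusted p = 0.143 with limma), and with limma's array weights the value was 0.68 (adjusted p = 0.0376). Fibroblast markers were higher in Mut BAT for 10 of 10 (9 of 10 under median-ratio scaling, sums of 123 to 278 against 316 to 647 TPM) and macrophage markers for 8 of 8 (68.1 to 364 against 354 to 455 TPM), and none was called. Their part in the Meg3 values was not tested. The median over the 8 tested members was 0.10, beside 0.09 over all genes. Of all genes tested in BAT, 72.7% were higher in Mut.

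H19 in BAT turned on 1 library. Mut library 1 held 11.2 TPM and the other 3 Mut libraries 3.34 to 4.31 TPM, against 3.55 to 5.71 TPM in WT. The log2 fold change was 0.19 with that library and -0.15 without it. Muscle fibre markers were higher in Mut BAT for 8 of 8 (median 0.47 beside 0.09 over all genes), or 7 of 8 under median-ratio scaling, none called. Their sums were 1681, 2601, 1762 and 1008 TPM in Mut BAT libraries 1 to 4 and 1119 to 1216 TPM in WT BAT. The part of muscle tissue in the H19 values of BAT was not tested. In muscle the Mut libraries were widely spread as a group, at 312, 67.7, 97.7 and 259 TPM, a 4.62-fold range that enclosed all WT values. The log2 fold change of H19 there was -0.38 (adjusted p = 0.83 with limma). It ran from -0.72 to 0.01 with 1 library left out, the last without Mut muscle library 2. The coefficient of variation of H19 was 54.1% to 66.4% in Mut BAT, heart and muscle, 58.0% in WT heart, and 10.2% to 23.6% in the other 4 groups. That of Snrpn was 5.47% to 17.6% over the 8 groups.

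In heart no member was called either, in a tissue where 18 of 12019 genes were (0.15%). Of all genes tested there, 19.3% were higher in Mut. Of the 8 members tested 7 were lower in Mut and 1, Grb10, was higher, with a median of -0.38 beside -0.11 over all genes. Under median-ratio scaling, which brings the median of all genes to 0.00, the counts were the same and the median was -0.27. Cdkn1c was the member without overlap, at 18.2, 13.6, 14.1 and 15.9 TPM in WT and 12.9, 11.1, 11.8 and 10.7 TPM in Mut (-0.38, SE 0.11, adjusted p = 0.375 with limma). Non-overlapping groups were found for 7.53% of all genes in heart. Peg3, Plagl1, Ndn and Cdkn1c, 4 of the 8 members tested, had an unadjusted p under 0.05 with limma, beside 1399 of the 12019 genes tested.

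The largest heart difference belonged to Plagl1, and it rested in part on 1 library. Plagl1 was 2.76 ± 1.60 TPM in WT and 1.08 ± 0.302 in Mut (SD, n = 4 each), a log2 fold change of -0.77 (SE 0.26, adjusted p = 0.397 with limma). WT heart library 4 was the highest of the WT heart libraries for 6 of 9 members: Plagl1, Peg3, H19, Ndn, Meg3 and Dlk1. Without it the log2 fold changes were -0.53 for Plagl1, -0.27 for Peg3, -0.31 for H19, -0.31 for Ndn and 0.01 for Meg3, and 6 of 8 members were lower. Without Mut heart library 2, the one with the highest mitochondrial share, 7 of 8 were lower with a median of -0.31.

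Atrial markers moved with genotype in the same hearts. The 5 atrial genes fell in Mut (Myl7, Myl4, Sln, Nppa and Mybphl, adjusted p from 0.00401 to 0.0496 with limma, 3 of 5 called under median-ratio scaling), and their sum was 330 to 3327 TPM in the WT libraries and 22.6 to 88.8 TPM in the Mut libraries. Myl7, the atrial myosin light chain, was 371, 555, 96.8 and 626 TPM in WT and 2.64, 3.76, 20.6 and 2.74 TPM in Mut. WT library 4 was thus the highest for Myl7 as for the 6 members named. Mut library 3, the highest Mut library for Myl7, was also the highest Mut library for H19, Ndn, Meg3 and Plagl1. Other values did not follow Myl7. H19 was 17.0 TPM in WT library 3, the lowest WT library for Myl7, and 14.5 in WT library 1. Mut library 3 held 28.0 TPM of H19 and WT library 2 held 23.9 TPM. Summed over the 5 atrial genes, Mut library 3 (88.8 TPM) was near Mut library 1 (74.2 TPM). Cdkn1c, Snrpn and Grb10 were highest in other WT libraries. The part of atrial tissue in the members' heart values was not tested.

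**Figure D4:**
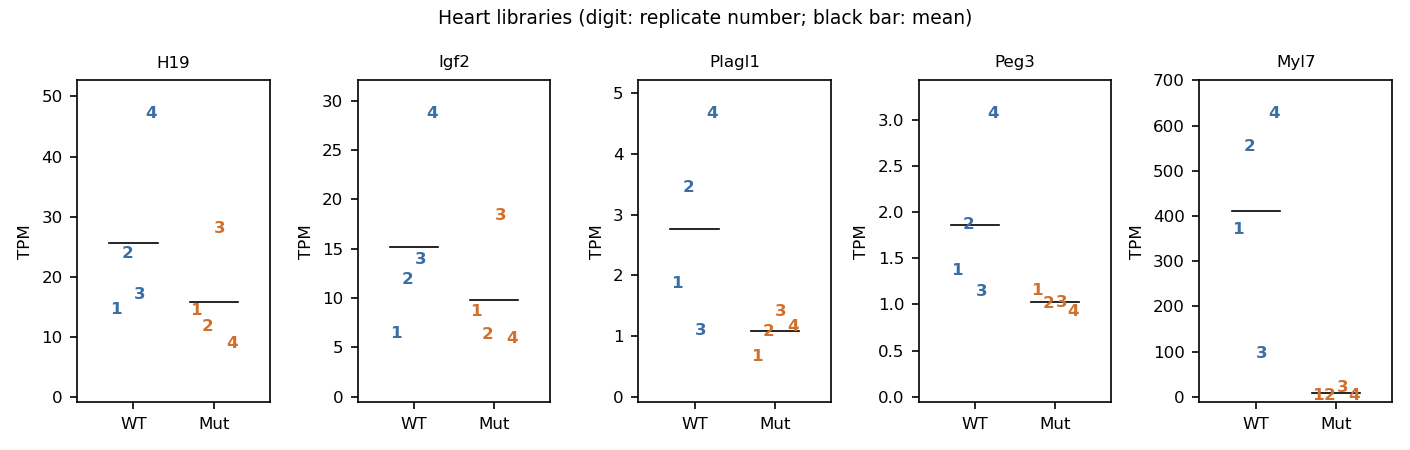
TPM in the 8 heart libraries for H19, its neighbour Igf2, Plagl1, Peg3 and the atrial gene Myl7, with the replicate number as the plotting symbol and the mean as a black bar. WT library 4 is the highest WT library in each panel, and Mut library 3 the highest Mut library for H19, Igf2, Plagl1 and Myl7.

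In muscle 1 of 11771 genes was called (0.0085%), and none of the 7 members tested was. Meg3 was 9.67 TPM in WT and 12.7 in Mut (log2 fold change 0.36, adjusted p = 0.618), Grb10 7.38 and 8.91 (0.25, adjusted p = 0.637) and Cdkn1c 18.8 and 14.6 (-0.36, adjusted p = 0.537, all with limma). Each of these 3 of the 7 members tested had an unadjusted p under 0.05, beside 913 of the 11771 genes tested. No member had groups without overlap, a state found for 4.49% of all genes in muscle. The median over the 7 members was 0.14, beside 0.05 over all genes, with 5 higher and 2 lower. Of all genes tested in muscle, 67.0% were higher in Mut. Fibroblast markers were higher in Mut muscle for 10 of 10 (sums of 129 to 174 against 186 to 238 TPM), none called. Macrophage markers were higher for 8 of 8 (58.1 to 74.9 against 82.8 to 110 TPM), cardiomyocyte markers lower for 8 of 8 (median -0.25) and muscle stem cell and developing fibre markers lower for 3 of 3 tested (3 of 5 when rescaled without mitochondrially encoded genes), none called. The part of these lists in the members' values was not tested.

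Seen gene by gene over the tissues, Cdkn1c had a lower Mut mean in all 4 tissues (log2 fold changes of -0.04 in BAT, -0.38 in heart, -0.48 in liver and -0.36 in muscle), with none called and a BAT value of 0.15 without Mut BAT library 1, 0.05 without WT library 1 and 0.08 without WT library 2. Its liver transcripts did not all fall. Cdkn1c-204, a retained-intron transcript, was 1.22 TPM in WT liver and 0 in Mut, and the coding Cdkn1c-205 was 1.23 and 0.675 TPM. The coding transcripts Cdkn1c-201 (1.39 and 1.60 TPM) and Cdkn1c-202 (0.177 and 0.290 TPM) were higher in Mut liver. Grb10 had a higher Mut mean in all 4 (0.28 in BAT, 0.14 in heart, 0.20 in liver and 0.25 in muscle), none called. In liver Grb10 reached the 1 TPM minimum through Mut alone (0.873 TPM in WT and 1.16 in Mut). That liver value therefore adds no support to the shared direction. Snrpn was at 0.02 in BAT, -0.23 in heart and 0.11 in muscle beside its 0.76 in liver. The BAT value was -0.10 under median-ratio scaling and -0.02 when rescaled without mitochondrially encoded genes.

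**Figure D5:**
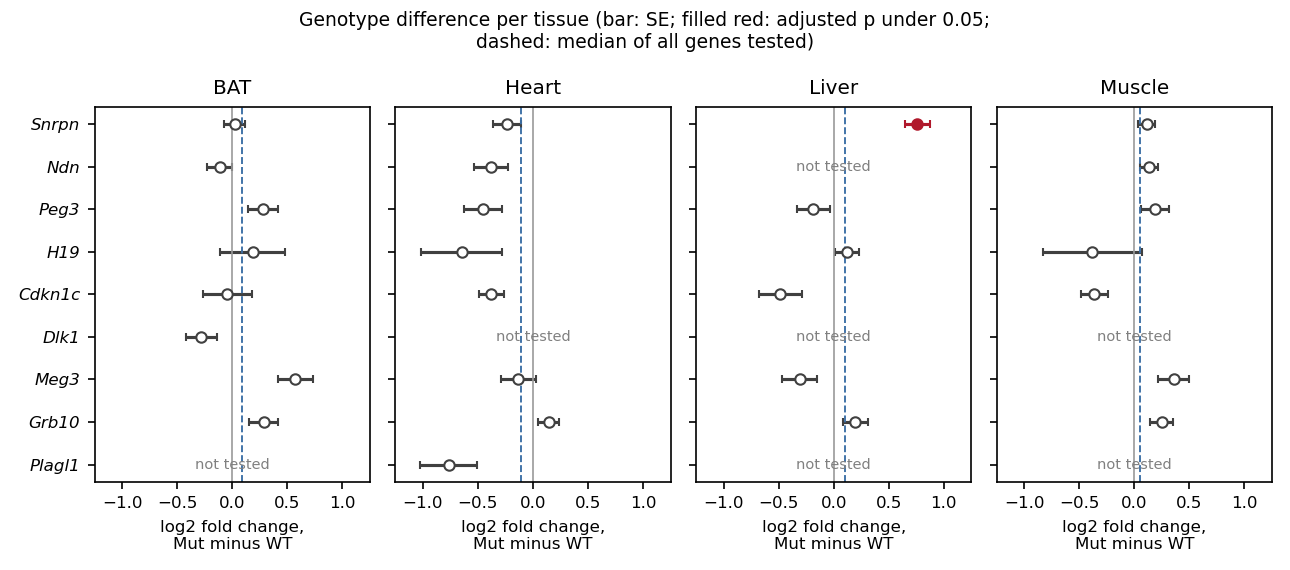
Log2 fold change (Mut minus WT, on the log2(TPM + 1) scale) of each imprinted gene in BAT, heart, liver and muscle on the x axis, with standard errors as bars and the median of all genes tested in that tissue as a dashed line. The filled red point, Snrpn in liver at 0.76, is the sole call, and genes under 1 TPM in a tissue are marked as not tested.

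Whether the genotype difference itself differed between tissues was tested in 1 limma model of all 32 libraries. The interaction was called for 3 of 9 members, beside 6.03% of all genes. For Snrpn the F value was 16.4 (adjusted p = 0.00066), and it was called in 42 of 42 alternative settings. Plagl1 (F 6.51, adjusted p = 0.0384) was called in 23 of 40 and Meg3 (F 5.94, adjusted p = 0.0488) in 13 of 42, so neither is firm, and Plagl1 entered the test through its heart level alone. The test says that the 4 differences were unequal and does not name the tissue. Peg3 (adjusted p = 0.0797), Ndn (0.152), Dlk1 (0.342), H19 (0.543), Cdkn1c (0.565) and Grb10 (0.874) did not pass.

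The imprinted neighbours of the members were mostly low. Igf2, the growth factor that shares its control region with H19, was 15.2 ± 9.51 TPM in WT heart, 4.13 in muscle, 2.46 in BAT and 0.482 in liver, so that its highest tissue was heart and that of H19 was muscle. In heart, WT library 4 was the highest for both (28.6 TPM of Igf2), and Mut library 3 the highest Mut library for both (18.4 TPM of Igf2). Rian, a noncoding RNA downstream of Meg3, was 4.04 TPM in WT BAT, 2.62 in heart, 2.81 in muscle and 0.270 in liver, the same highest and lowest tissues as for Meg3. Snhg14 was 6.21 TPM in WT heart, 4.59 in muscle, 1.86 in BAT and 1.52 in liver, the order of Snrpn. In liver Snhg14 was 2.24 TPM in Mut (log2 fold change 0.37, adjusted p = 0.138 with limma) and overlapped between genotypes. Cobl, next to Grb10, was 61.7 TPM in WT muscle and 0.743 in BAT, and Ddc, on its other side, 17.1 TPM in WT liver, where Grb10 was lowest. Kcnq1ot1, Phlda2, Mirg, Rtl1, Usp29, Magel2 and Mkrn3 had means under 1 TPM in all 8 groups, and Zim1 reached 1.01 TPM in Mut muscle alone.

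A wider list of 69 other imprinted genes set the members in context. Of these, 37 reached 1 TPM in WT BAT, 39 in heart, 33 in liver and 35 in muscle. The most abundant were Gnas (2256 TPM in WT BAT), Slc38a4 (666 in liver), Dcn (367 in heart), Cd81 (238 in liver), Nap1l4 (128 in muscle) and Nnat (90.3 in BAT). In Mut liver 2 of the 34 tested rose, namely Osbpl5, an oxysterol binding protein gene, which went from a mean of 5.33 to one of 9.39 TPM (0.72 on the log2 scale, adjusted p = 0.0189), and Pon3, a lactonase gene, from 41.5 to 53.7 TPM (0.36, adjusted p = 0.0390, both with limma). These 2 of 34 are a share near the 4.16% of all genes called in liver, so the count is not particular to imprinted genes. None was called in BAT, heart or muscle. The direction of the list followed all genes: 26 of 34 were higher in liver (median 0.20 beside 0.10 over all genes), 34 of 39 lower in heart (-0.16 beside -0.11), 29 of 39 higher in BAT (0.13 beside 0.09) and 30 of 35 higher in muscle (0.06 beside 0.05). With median-ratio scaling these counts were 20 of 34, 27 of 39, 23 of 39 and 20 of 35, with 1 call in liver. Mest, the paternally expressed gene known to rise with fat expansion, was 5.35 TPM in WT BAT and 19.9 in Mut (1.61, adjusted p = 0.112 with limma).

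Genes that keep or read imprints and genes of spliceosomal small nuclear ribonucleoproteins (snRNPs) were examined beside the members. Of 26 imprint maintenance and DNA methylation genes, 18 were tested in liver and 1 rose: Zfp445, a zinc finger gene that helps to keep imprints, whose mean was 43.5 in WT and 60.8 TPM in Mut (0.48 on the log2 scale, adjusted p = 0.0313 with limma). The list was 13 higher and 5 lower in liver as deposited, and 7 higher and 11 lower under median-ratio scaling, where no gene of the list was called. The 1 of 18 is likewise near the 4.16% of all genes. None of the list was called in the other tissues. A list of 12 snRNP protein genes held 7 of the Sm core, among which SmN works (Snrpb, Snrpd1, Snrpd2, Snrpd3, Snrpe, Snrpf and Snrpg), and 5 of proteins specific to the U1 or U2 particle (Snrnp70, Snrpa, Snrpc, Snrpa1 and Snrpb2). It showed no call in any tissue. In liver 7 were higher and 5 lower (median 0.01 beside 0.10; 2 and 10 under median-ratio scaling), and Snrpb, the paralog of Snrpn, was 52.5 TPM in WT and 53.0 in Mut (0.03, adjusted p = 0.910 with limma). In heart all 12 of the list were lower (median -0.31 beside -0.11), 9 of 12 under median-ratio scaling. Of 11 tested genes of the growth hormone and IGF axis, 2 fell in Mut liver: Igfbp2, a secreted IGF binding protein, and Irs2, a docking protein of the insulin receptor, from 4.31 to 2.49 TPM (-0.61, adjusted p = 0.0233 with limma). Beside them, 46 of all 11994 genes tested in liver fell, and the count of all liver calls rested on single libraries.

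Genes with the most similar profile were taken by Pearson's r over the 8 group means of log2(TPM + 1), among 12710 genes, as a description only. The points share tissue identity, and many genes follow it. For Snrpn they were Aak1 (r = 0.988), Dync1li1 (0.986) and Arf2 (0.982). For Ndn they were Timm44, Ebf2 and Ndufb6 (all 0.996), of which Ebf2 is a brown fat transcription factor gene at 12.4 TPM in WT BAT and 0.243 in liver. H19 was followed most closely by Ube2g2 (0.999), Asb4 (0.999) and Kif1c (0.998). Asb4 is itself an imprinted gene, and its mean was 9.03 TPM in WT muscle. Phactr2, another gene of the imprinted list, led for Grb10 (0.996), and Nradd (0.995) for Peg3, Ndufb9 (0.995) for Cdkn1c, Ttc28 (0.994) for Meg3, Frmd8os (0.981) for Dlk1 and Ahdc1 (0.962) for Plagl1. Among the members themselves the closest were Ndn and Peg3 (0.969), Cdkn1c and Meg3 (0.967), and Snrpn and Grb10 (0.926). Dlk1 and Meg3, neighbours read from opposite parental copies, had r = 0.677.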

How the data were processed

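RNA-seq was done on 32 strand-specific libraries, per the labels' protocols. The authors deposited TPM per transcript, made with Salmon per the submitters' processing notes. Which Salmon version, genome build and transcript release they used is not given in the sources used here. Of 147493 transcripts, 136081 (92.26%) matched GENCODE M21 by identifier without version (136044 carry a higher version than M21), and TPM was summed per gene. The unmatched held at most 0.896% of a library. Groups came from library titles. limma 3.58.1 (R 4.3.3, trend) was run on log2(TPM + 1) for genes whose mean in the tissue reached 1 TPM, or in any tissue for tests across tissues, with Benjamini-Hochberg adjustment over all genes tested. Tests were two-sided and called at an adjusted p under 0.05. A log2 fold change on this scale understates changes of low genes. P-values measure the spread between libraries. The procedure was tested on simulated data.

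The members and the gene lists were chosen with earlier results of these data known. Named are the members, their imprinted neighbours, called list genes (up to 4 a list), the 6 most abundant other imprinted genes and the 3 closest profiles per member; Mest, Snrpb, and the levels of Asb4 and Ebf2 were added after their values were seen. Alternatives were a threshold of 0.1 on the adjusted p, a pseudocount of 0.1, no filter or one at 5 TPM, limma with array weights or without trend, a replicate block, all libraries in 1 fit, libraries scaled by median ratios or rescaled without mitochondrially encoded genes, Snrpn and Snurf summed, and leaving out each library. Tables and figures used Python 3.11.15.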

Additional observations from a re-analysis of the deposited data

Results flagged for a closer look

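Among 72 sets of 4 libraries (9 genes in 8 groups), 5 held a library far from the other 3, and chance alone gives about 1 in 20. H19 in Mut BAT library 1 was 11.2 TPM against 3.34 to 4.31 in the others. Dlk1 in WT liver library 3 was 0.372 TPM against 0.0830 to 0.114, Dlk1 in WT heart library 4 was 0.0949 TPM against 0.0433 to 0.0497, and Dlk1 in Mut liver library 4 was 0.0861 TPM with the others listed at 0. Grb10 in Mut liver library 3 was low, at 0.814 TPM against 1.24 to 1.29.

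The limma interaction test of genotype and tissue passed the threshold for Snrpn (adjusted p = 0.00066), Plagl1 (adjusted p = 0.0384) and Meg3 (adjusted p = 0.0488), of which only Snrpn was called in all alternatives run (Plagl1 in 23 of 40 and Meg3 in 13 of 42). For Snrpn the log2 fold changes were 0.02 in BAT, -0.23 in heart, 0.76 in liver and 0.11 in muscle. Meg3 was at 0.57 in BAT, -0.13 in heart, -0.31 in liver and 0.36 in muscle. Plagl1 was at -0.77 in heart and under 1 TPM in the mean of the other tissues.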

How the results depend on the processing

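TPM gives no depth, and with 4 libraries a group small differences of genes near 1 TPM were not detectable. No called result changed direction. The cause of the changes below was not tested. The number of members called in BAT went from 0 to 1 with array weights and with 1 fit over all 32 libraries (Meg3), and in heart from 0 to 1 with 1 fit over all 32 libraries (Plagl1). In liver it went from 1 to 0 with no filter on low values. Leaving out 1 library gave 0 to 1 in liver and 0 to 0 in BAT, heart and muscle. Members called for the interaction went from 3 to 1 with a pseudocount of 0.1, with no filter and without mitochondrially encoded genes, and were 1 to 4 when 1 library was left out. Leaving out 1 library gave 41 to 43 called tissue pairs in WT and 42 to 45 in Mut. Of the members' genotype values under alternatives, 494 kept their sign and their side of the threshold, 10 uncalled values changed sign, 3 became calls and 3 lost the call. The count of all genes called in liver was 22 to 390 with 1 library left out and 35 to 1905 under the other alternatives, in BAT 0 to 819 and 0 to 846, in heart 7 to 20 and 0 to 165, and in muscle 0 to 8 and 0 to 7.

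Replicate numbers do not pair WT with Mut libraries (correlations of same-numbered deviations from -0.25 to 0.14). Across tissues the labels do not say whether a number marks 1 mouse. In Mut, 4 of 4 numbers matched best with their own between heart and muscle and between liver and muscle, a hint from the data and not the design. Those own-number correlations were only 0.02 to 0.13. In WT, 0 of 4 did so between BAT and muscle and between liver and muscle, and the remaining tissue pairs gave 2 or 3 of 4. With the replicate number as a block, Snrpn in liver stayed called (0.76, adjusted p = 0.0407 with limma). The number of called members was 0 in BAT, heart and muscle and 1 in liver. As the numbers do not pair WT with Mut libraries, a call kept under that block adds no support.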

Other observations

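Cyclin-dependent kinase inhibitors other than Cdkn1c, and markers of cycling cells, were listed separately. Of 6 such inhibitors none was called in any tissue as deposited, with medians of 0.20 in BAT (5 tested), -0.27 in heart (4), 0.01 in liver (4) and 0.08 in muscle (5). Under median-ratio scaling 1 was called lower in liver. Of 3 proliferation markers tested in liver 3 were higher in Mut and 1 was called, Mcm2, a subunit of the replication helicase. Its means were 0.987 TPM in WT and 3.01 TPM in Mut (0.99 on the log2 scale, adjusted p = 0.0189 with limma). Mcm2 reached the 1 TPM minimum through Mut alone, so its call and its place in that count support nothing. Red blood cell markers were higher in Mut in all 4 tissues for 5 of 5 genes (medians of 0.83 in BAT, 0.99 in heart, 0.62 in liver and 0.61 in muscle), and none was called. Outside BAT their sums overlapped between genotypes. Mut library 4 held 26213 TPM in heart (3248 to 6720 in the other Mut libraries, 3088 to 6408 in WT). It held 2984 TPM in muscle (624 to 828 in the other Mut libraries, 545 to 781 in WT). In liver, Mut libraries 1 and 3 (1486 and 1067 TPM) were not above the WT range of 1226 to 1568 TPM.

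Markers of adrenal and other endocrine tissue, where Dlk1 is known to persist, summed to at most 1.86 TPM in any library.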
